A study of Drosophila melanogaster with 8 samples.

Results

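Complex I, or NADH:ubiquinone oxidoreductase, is the entry point of electrons from NADH into the respiratory chain. The genes described here are all those whose symbol starts with ND-, the prefix that fly gene nomenclature gives to nuclear-encoded subunits of this enzyme and to close copies of them. They were 40 of the 17562 genes counted. Of these, 34 encode distinct subunits and 6 are paralogues, whose symbols carry the name of a subunit followed by L. The mammalian orthologue of each gene was used to place it in the matrix arm (21 genes, of which 15 are subunits and 6 paralogues) or in the membrane arm (17 genes). ND-ACP, the mitochondrial acyl carrier protein, sits in both arms, and ND-MLRQ, orthologous to NDUFA4, is counted in neither because the mammalian protein is placed in cytochrome c oxidase.

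The enzyme is L-shaped. Its matrix arm oxidises NADH at a flavin and hands the electrons along a chain of iron-sulphur clusters to ubiquinone, and its membrane arm pumps protons across the inner mitochondrial membrane. The proton-pumping core of the membrane arm is encoded by mitochondrial DNA, whereas the core of the matrix arm and every accessory subunit come from nuclear genes and are imported. Flight muscle, which makes up most of the fly thorax, is packed with mitochondria and depends on this chain for ATP.

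Thoraces were dissected from adult males of 2 genotypes and their poly-A RNA was sequenced, with 4 libraries each and 5 to 6 thoraces per library. Control flies came from tub-Gal80ts; dMef2-GAL4 crossed to w[1118], and REPTOR[ACT] flies from the same line crossed to UAS-REPTOR[ACT], a constitutively active form of REPTOR. REPTOR is a bZIP transcription factor that TORC1 signalling keeps out of action. All flies therefore carried the muscle driver dMef2-GAL4 and the temperature-sensitive repressor Gal80ts. Crosses and the first 3 to 4 days after adult males were collected were at 18 °C, followed by 4 days at 29 °C in both groups. The driver acts in muscle, while the dissected thorax also holds fat body, nerve and other tissue. The comparison asked how muscle responds to sustained REPTOR activity, and here how the complex I genes did.

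Library depth was 26.8 to 50.03 M reads (M, 1000000). REPTOR itself, the expressed gene, was at 101, 132, 92.5 and 97.2 CPM (counts per 1000000) in the control libraries and at 337, 289, 269.9 and 306 CPM in the REPTOR[ACT] libraries, so no library went against its label. Muscle markers summed to 20499 to 22723 CPM in controls and to 33701 to 36686 CPM in REPTOR[ACT] libraries. Of the 12, 7 were called higher (58.3%, against 24.8% of all genes tested). The other 5, sls, bt, TpnC4, fln and Act57B, were not called. As group means, Mhc (5635 to 9651 CPM), Mlc2 (3074 to 6685 CPM) and Act88F (382 to 3360 CPM) rose most. Summed markers of neurons (728 to 843 against 682 to 784 CPM), haemocytes (884 to 965 against 819.7 to 973 CPM) and fat body (4405 to 5965 against 4945 to 7054 CPM) overlapped between the groups. Within these sums, the neuron marker nSyb (log2 fold change −0.19) and the haemocyte marker Hml (−0.28) were called lower. The haemocyte marker NimC1 (0.87) and the fat body marker Apoltp (0.41) were called higher, and no other marker of these lists was called. Summed gut markers did not overlap (199.6 to 231 against 172 to 194 CPM), and most of that sum was pros, which neurons also express. Of 10 testis markers 8 were under 1 CPM. The part of these shifts in the complex I values was not tested, and in bulk RNA fewer cells of a type cannot be told apart from less RNA per cell. CPM values are read counts scaled by library size and TMM factors. "Lower" and "higher" calls are from edgeR's quasi-likelihood test over 9903 genes at a Benjamini-Hochberg adjusted p under 0.05, each group has n = 4, ± is the SD, and fold changes are REPTOR[ACT] over control. The labels call the libraries replicates without saying that they came from separate crosses, so p-values measure the spread between these libraries.

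Of the 40 genes, 33 had enough reads to be tested. The 7 others carried next to none. Per library, in the order control 1 to 4 and then REPTOR[ACT] 1 to 4, ND-51L1, a paralogue of the flavoprotein subunit ND-51, had 5, 10, 5, 4, 8, 0, 5 and 4 reads. ND-51L2, the other copy of ND-51, had 8, 5, 2, 4, 2, 1, 2 and 5 reads. These counts were too low for a test. ND-20L and ND-24L each had a single read, both in REPTOR[ACT] replicate 4, and ND-B14.5AL had none. A count of 0 allows up to 3 reads, which is 0.0626 to 0.114 CPM depending on the library, for counting error only. The subunit genes that these copies resemble lay between 147 and 1527 CPM as group means, so nearly all reads assigned to these families were assigned to the main copies.

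ND-MNLL, orthologous to the single-helix subunit NDUFB1, had 0 reads in all 8 libraries. All 720 of its exon bases are also exon bases of CG45089 on the same strand, which had 0 reads too. Among all genes with at least 99% of their exon bases shared with another gene on the same strand, 422 of 431 (97.9%) had 0 reads, against 1942 of 11755 (16.5%) of genes that share none. Genes covered only from the opposite strand had 0 reads in 17 of 141 cases (12.1%). Reads falling in a shared same-strand exon were therefore left uncounted and reads were assigned by strand, as far as these values show, and the level of ND-MNLL is not known from these tables. Of the 33 tested genes, 16 share no exon base with another gene, and 10 of them were lower and 1 was higher. Among the 17 that share some, 9 were lower and 2 were higher. Of all genes tested, 19.4% were called lower and 24.8% higher.

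Most of the tested complex I genes were lower in REPTOR[ACT] thoraces, by modest amounts. Of the 33 tested, 19 were called lower (57.6%), where 19.4% of all genes tested were, and 3 were called higher (9.09%), where 24.8% of all genes tested were. The median log2 fold change of the 33 was −0.23 (SD over genes 0.40) against −0.0090 for all genes, whose middle 50% spanned −0.22 to 0.29. Only ND-B8 passed the study's additional limit of a log2 fold change beyond 1 in either direction. That limit was passed by 2.05% of all genes downwards and 4.83% upwards. All 4 REPTOR[ACT] libraries lay below all 4 controls in 19 of the 33 genes (18.3% of all genes) and above them in 3 (23.6% of all genes), and the groups overlapped in the other 11. With the replicate number as a block, 20 were called lower and 5 higher, the added genes being ND-B15 (lower), ND-ACP and ND-ASHI (both higher). The block also raised the calls over all genes, from 1918 to 2428 lower and from 2459 to 2805 higher. Mitochondrial transcripts took 30.4 to 42.2% of the reads in controls and 31.6 to 34.1% with REPTOR[ACT]. With them removed before scaling, 20 complex I genes were called lower and 3 higher (2104 and 2366 over all genes).

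**Figure D1:**
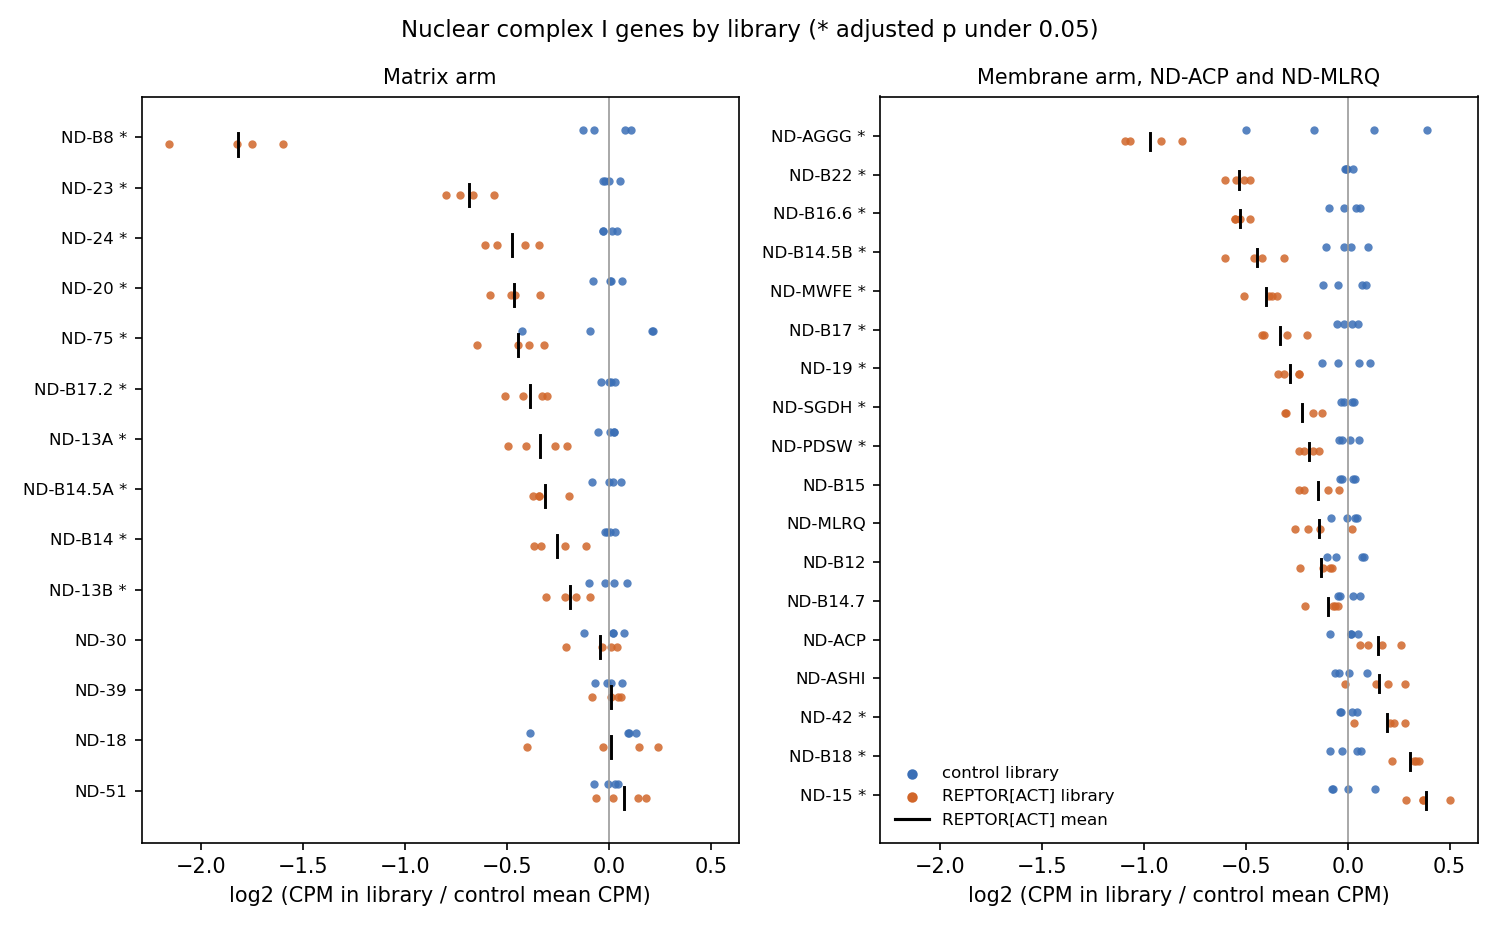
CPM of the complex I genes in every library, as log2 of the ratio to the control mean (horizontal axis), for the matrix arm (left) and for the membrane arm with ND-ACP and ND-MLRQ (right). Blue points are the 4 control libraries, orange points the 4 REPTOR[ACT] libraries, black bars the REPTOR[ACT] mean, and stars mark an adjusted p under 0.05. The orange points lie left of the blue ones in 19 genes, farthest in ND-B8 and then ND-AGGG, and right of them in ND-ACP, ND-B18 and ND-15.

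In the matrix arm, 10 of the 15 tested genes were lower, none was higher and 5 were not called, with a median log2 fold change of −0.31. Over all genes tested, 19.4% were lower and 24.8% higher. Of the 7 core subunits, which carry the flavin and the iron-sulphur clusters and form the ubiquinone site, 4 were lower (median −0.45). Of the 8 accessory subunits, 6 were lower (median −0.28). Without ND-B8, the outermost value, the median of the other 14 matrix arm genes was −0.28, with 9 lower. The 10 lower genes are spread over both ends of the arm, from the NADH end to the ubiquinone end, and the 5 uncalled ones are too.

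ND-23 (NDUFS8), a ferredoxin-like subunit that holds a pair of iron-sulphur clusters on the way to ubiquinone, had the lowest log2 fold change of the core (chromosome 3R, 15836048 to 15837117, BDGP6.54). It was at 557, 525.4, 536.5 and 529 CPM in the control libraries and at 338, 363, 309 and 324 CPM in the REPTOR[ACT] libraries. The groups were far apart, the highest REPTOR[ACT] library lying below the lowest control by more than the range within either group. The fitted change was 1.61-fold lower (log2 fold change −0.69, SE 0.0629, adjusted p = 5.2e-06, 95% interval −0.83 to −0.55). ND-24 (NDUFV2), the iron-sulphur partner of the flavoprotein (chromosome X, 17632089 to 17633509), was at 576, 550.1, 566 and 550.1 CPM in controls and at 422, 442, 368 and 383 CPM with REPTOR[ACT] (log2 fold change −0.47, SE 0.0675, adjusted p = 1.6e-04). ND-20 (NDUFS7), which holds the last cluster before ubiquinone (chromosome X, 15985473 to 15986808), was at 489.5, 518, 520.0 and 540.4 CPM in controls and at 370.1, 409, 345 and 375 CPM with REPTOR[ACT] (log2 fold change −0.46, SE 0.0653, adjusted p = 1.4e-04). Both genes had every REPTOR[ACT] library below every control.

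ND-75 (NDUFS1), the large iron-sulphur subunit at the NADH end, was also called lower but with overlapping groups (chromosome X, 8248651 to 8251687). Its values, shown here because of that overlap, were 583, 907.6, 736 and 911 CPM in the control libraries and 576.5, 597, 501 and 628 CPM in the REPTOR[ACT] libraries. Control replicate 1 lay within the REPTOR[ACT] range and the other 3 controls above it. The fold change was −0.45 on the log2 scale (SE 0.139, adjusted p = 0.0261) and was −0.57 (adjusted p = 0.0012) without control replicate 1. The call was lost when control replicate 2 or 4 was left out (adjusted p = 0.0739 and 0.0752), when any of REPTOR[ACT] replicates 1, 2 or 3 was (0.0606, 0.0593 and 0.0741), and with no filter on low counts (0.0564).

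The 3 remaining core genes were not called. ND-51 (NDUFV1), the flavoprotein that oxidises NADH and the main partner of ND-24, was at 1381, 1447, 1484 and 1495.5 CPM in controls and 1602.5, 1649, 1388 and 1470.2 CPM with REPTOR[ACT]. The groups overlapped, with a log2 fold change of 0.073 (95% interval −0.073 to 0.22, adjusted p = 0.398), whereas the ND-24 interval ran from −0.62 to −0.33. The difference between these genes was not tested. ND-30 (NDUFS3), a scaffold subunit of the ubiquinone end, was at 267 ± 15.5 against 259 ± 19.5 CPM (−0.045, adjusted p = 0.634).

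Among the accessory subunits of the matrix arm, ND-B8 had the lowest log2 fold change of all 33 complex I genes. ND-B8 is the orthologue of NDUFA2, a small subunit with a thioredoxin fold (chromosome 2L, 4454626 to 4455207). It was at 112, 117, 132 and 129.5 CPM in the control libraries and at 34.6, 40.4, 27.4 and 36.4 CPM in the REPTOR[ACT] libraries. The groups were far apart, and the lowest control lay well above the highest REPTOR[ACT] library. This was 3.53-fold lower (log2 fold change −1.82, SE 0.110, adjusted p = 3.5e-07, 95% interval −2.06 to −1.58), the 64th lowest of the 9903 genes tested, and the log2 fold change stayed between −1.89 and −1.72 in all 17 alternative analyses. Of the 460 exon bases of ND-B8, 71 overlap the opposite-strand gene Gs1l, which was called higher (log2 fold change 0.40).

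The other 5 lower accessory genes of the matrix arm changed less. ND-B17.2 (NDUFA12), which docks beside ND-13A in the mammalian enzyme, went from 392 ± 7.80 to 299 ± 19.3 CPM (−0.39, adjusted p = 3.2e-04). ND-13A (NDUFS6), a zinc-binding subunit, went from 188 ± 4.96 to 149 ± 13.5 CPM (−0.34, adjusted p = 0.00233). ND-B14.5A (NDUFA7) went from 182.5 ± 7.48 to 147 ± 8.25 CPM (−0.31, adjusted p = 0.00154). In these 3 genes, and in ND-B14 (NDUFA6), an LYR-motif protein that binds acyl carrier protein, no REPTOR[ACT] library reached the controls. ND-B14 was at 222 ± 3.49 against 186 ± 15.023 CPM (−0.25, adjusted p = 0.00849). ND-13B (NDUFA5), a subunit of the ubiquinone end, was at 181 ± 9.68 against 158.5 ± 10.036 CPM with 1 REPTOR[ACT] library inside the control range (−0.19, adjusted p = 0.0338). The ND-13B call was lost whichever library was left out except control replicate 2 or REPTOR[ACT] replicate 2 (adjusted p 0.0571 to 0.0917), and when libraries were scaled by total size, without TMM (0.177).

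ND-39 (NDUFA9), which has the fold of a short-chain dehydrogenase, was at 546 ± 20.7 CPM in controls and 549.9 ± 24.1 CPM with REPTOR[ACT], with a 95% interval of the log2 fold change from −0.12 to 0.14. ND-18 (NDUFS4), an accessory subunit of the NADH module, was at 177, 172, 173 and 124 CPM in controls and 179, 191, 158.5 and 122 CPM with REPTOR[ACT]. Replicate 4 was the lowest library of both groups. The ND-18 interval, −0.35 to 0.36, was among the widest here, and a change of that size would not have been detectable.

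**Figure D2:**
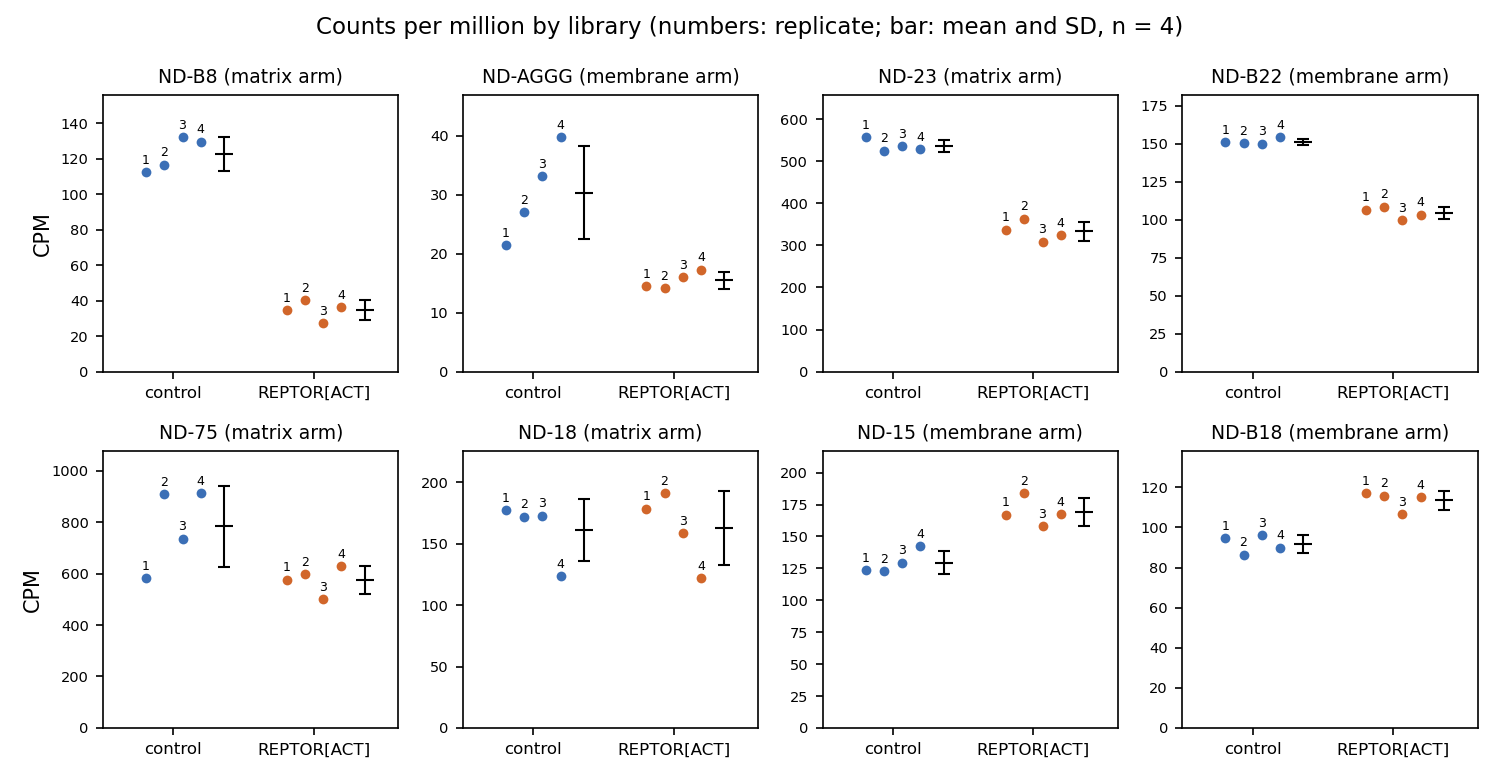
CPM (vertical axes, each from 0) in the 8 libraries for 8 complex I genes, with the replicate number beside each point and the mean and SD (n = 4) as a black bar. ND-B8, ND-AGGG, ND-23 and ND-B22 have all REPTOR[ACT] libraries below all controls, ND-75 overlaps through control replicate 1, ND-18 is low in replicate 4 of both groups, and ND-15 and ND-B18 have all REPTOR[ACT] libraries above all controls.

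In the membrane arm, 9 of the 16 tested genes were lower, 3 were higher and 4 were not called, with a median log2 fold change of −0.21. All of these are accessory subunits. All REPTOR[ACT] libraries lay below all controls in 11 genes (68.75%, against 18.3% of all genes tested) and above them in 2 (12.5%, against 23.6%). Single-helix subunits are small proteins that cross the membrane once and wrap the arm. They were lower in 4 of 7 tested cases (57.1%), near the share of the whole membrane arm (56.25%), and higher in none. All genes tested were lower in 19.4% of cases and higher in 24.8%.

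ND-AGGG (NDUFB2), one of these single-helix subunits (chromosome 3L, 24976254 to 24977118), was at 21.5, 27.0, 33.2 and 39.8 CPM in the control libraries and at 14.501, 14.2, 16.1 and 17.3 CPM in the REPTOR[ACT] libraries. The controls varied more (SD 7.89 CPM) than the REPTOR[ACT] libraries (SD 1.43 CPM), and the groups did not overlap. The fitted change was 1.95-fold lower (log2 fold change −0.97, SE 0.175, adjusted p = 0.00180, 95% interval −1.36 to −0.57), and its log2 fold change lay between −1.10 and −0.80 over the alternatives. ND-B22 (NDUFB9), an LYR-motif subunit at the far end of the arm (chromosome 2L, 13370103 to 13371110), was at 151, 150.1, 149.8 and 154 CPM in controls and at 106.5, 108.5, 99.7 and 103 CPM with REPTOR[ACT] (log2 fold change −0.53, SE 0.0535, adjusted p = 1.0e-05). Both groups of ND-B22 varied little (SD 1.99 and 3.86 CPM) and were well apart. It shares 227 exon bases with the opposite-strand gene CG31855, which was called higher (log2 fold change 0.64).

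ND-B16.6 (NDUFA13), a transmembrane subunit at the junction of the arms known in mammals also as GRIM-19 (chromosome X, 6349016 to 6350401), was at 281.5, 267, 297 and 293 CPM in controls and 197, 194, 204 and 194 CPM with REPTOR[ACT] (log2 fold change −0.53, SE 0.0571, adjusted p = 1.9e-05). ND-B14.5B (NDUFC2), another transmembrane subunit (chromosome 2L, 3144953 to 3145848), was at 228, 242, 248 and 263 CPM in controls and 183, 197, 162 and 178 CPM with REPTOR[ACT] (log2 fold change −0.45, SE 0.0730, adjusted p = 4.4e-04). Both had well separated groups. The single-helix genes ND-MWFE (NDUFA1), ND-B17 (NDUFB6) and ND-SGDH (NDUFB5) were lower by smaller amounts. ND-MWFE went from 164 ± 11.5 to 124 ± 6.22 CPM (−0.40, adjusted p = 5.3e-04), ND-B17 from 213 ± 6.63 to 169 ± 12.2 CPM (−0.33, adjusted p = 0.00151) and ND-SGDH from 413 ± 8.64 to 353 ± 22.4 CPM (−0.23, adjusted p = 0.0104). The groups of these genes did not overlap. The ND-SGDH call was lost when libraries were scaled by total size alone (adjusted p = 0.0694).

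The 4 twin-cysteine subunits, which are folded in the intermembrane space by disulphide bonds and lie on the outer face of the membrane arm, were all called but split in direction. ND-19 (NDUFA8) went from 114 ± 8.28 to 93.8 ± 3.35 CPM (−0.28, adjusted p = 0.00428) and ND-PDSW (NDUFB10) from 270.3 ± 8.43 to 237 ± 7.11 CPM (−0.19, adjusted p = 0.0145, lost with total library size at 0.133). ND-15 (NDUFS5, chromosome 2L, 114726 to 156030) was at 123, 123, 129.5 and 142 CPM in controls and at 167, 184, 158 and 168 CPM with REPTOR[ACT]. It was 1.30-fold higher (log2 fold change 0.38, SE 0.0697, adjusted p = 9.2e-04). ND-B18 (NDUFB7, chromosome X, 15063733 to 15064926) was at 94.8, 86.4, 96.0 and 90.0 CPM in controls and at 117, 116, 106.5 and 115.01 CPM with REPTOR[ACT], 1.24-fold higher (log2 fold change 0.31, SE 0.0597, adjusted p = 0.00142). In all 4 genes the groups were fully separated, downwards in the first pair and upwards in the second. Groups were separated downwards in 18.3% of all genes tested and upwards in 23.6%. Calls were lower in 19.4% of all genes tested and higher in 24.8%. The ND-15 and ND-B18 calls held in all 17 alternatives. Both genes share exon bases with opposite-strand neighbours, ND-15 mainly with CG3709 (178 bases, log2 fold change 0.24) and ND-B18 with opm (91 bases, 0.37), which were at 5.18 to 10.2 CPM as group means.

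The third higher gene, ND-42 (NDUFA10), resembles nucleoside kinases and lies on the matrix face of the membrane arm (chromosome 3R, 22027709 to 22029393). It was at 302, 301, 313.5 and 319 CPM in controls and at 357, 375, 316 and 362 CPM with REPTOR[ACT]. REPTOR[ACT] replicate 3 fell inside the control range and the other 3 lay above it (log2 fold change 0.19, SE 0.0648, adjusted p = 0.0323). The ND-42 call was lost when libraries were scaled by total size alone (adjusted p = 0.0768), and when control replicate 1 or 2 (0.0762 and 0.0562) or REPTOR[ACT] replicate 1, 2 or 4 (0.0720, 0.0544 and 0.0782) was left out.

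The uncalled genes of the membrane arm were ND-B15 (NDUFB4, −0.15), ND-B12 (NDUFB3, −0.13), ND-B14.7 (NDUFA11, −0.097) and ND-ASHI (NDUFB8, 0.15) on the log2 scale. ND-B15 and ND-B14.7 had all REPTOR[ACT] libraries just below the controls. ND-B15 was at 122 ± 3.18 against 109.9 ± 7.17 CPM (adjusted p = 0.0749) and ND-ASHI at 191 ± 9.47 against 213 ± 17.9 CPM (adjusted p = 0.104). ND-ACP, the acyl carrier protein that LYR-motif subunits of both arms bind, was at 166 ± 6.71 against 184 ± 11.3 CPM, with all REPTOR[ACT] libraries above the controls and an adjusted p of 0.0745 (0.15). Its LYR partners ND-B14 and ND-B22 were both called lower. ND-MLRQ was at 986 ± 38.4 against 895.5 ± 76.1 CPM (−0.14, adjusted p = 0.126). NP15.6 and CG9034 (NdufA3 in the reference annotation), structural subunits named without the ND- prefix, were not called either (0.073 and 0.10, adjusted p = 0.338 and 0.280).

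Scaled by exon length, control levels of the 33 genes ranged 45.0-fold. ND-MLRQ was highest at 1832.5 CPM per kb, followed by ND-51 (913), ND-23 (656), ND-B17.2 (535) and ND-24 (527). ND-15 (114), ND-B18 (81.3) and ND-AGGG (40.8) were the lowest, so the higher-called ND-15 and ND-B18 and the lower-called ND-AGGG shared the bottom of the order. ND-MWFE shares 128 of its 844 exon bases with Nrk on the same strand, where reads were not counted, so its level per kb (194) is understated. The median per kb was 338 for the matrix arm, 407 for its core and 204 for the membrane arm. ND-B17.2 and ND-24 did not differ beyond their spread as neighbours, whereas ND-MLRQ and ND-51 did. The order of genes was much the same in the REPTOR[ACT] libraries (Spearman's rho 0.922 over 33 genes, which share the same libraries), with 1 large move, that of ND-B8 from rank 17 to rank 32 (266.6 to 75.5 CPM per kb). The log2 fold change had little relation to the control level (Spearman's rho −0.164, Pearson's r on log2 levels −0.014, a description over genes that are not independent). The flavoprotein pair ND-51 and ND-24, whose proteins are present once each in the complex, stood at 913 and 527 CPM per kb in controls and at 961 and 379 with REPTOR[ACT].

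**Figure D3:**
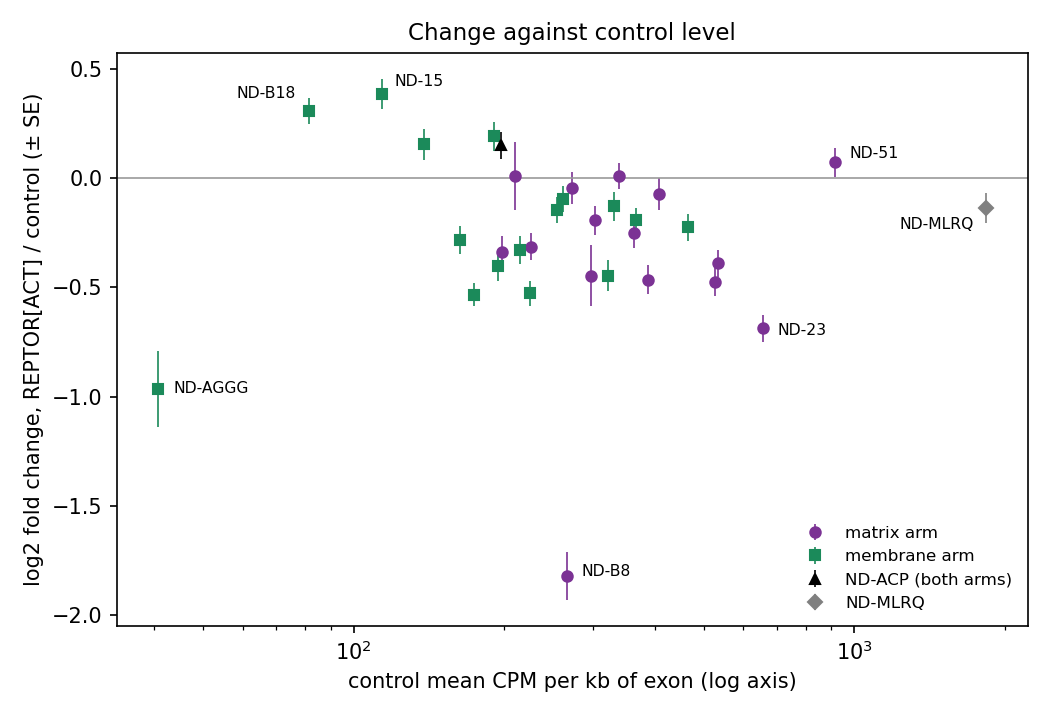
Log2 fold change, REPTOR[ACT] over control (vertical axis, bars ± SE), against the control mean in CPM per kb of exon (horizontal log axis) for the 33 tested genes, by arm. Large falls (ND-B8, ND-AGGG, ND-23) occur at middle, low and high control levels, and the highest genes, ND-MLRQ and ND-51, are close to 0.

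Added up within libraries, the complex I genes made 10545 to 11424 CPM in controls (11030 ± 369) and 8878 to 10329 CPM with REPTOR[ACT] (9647 ± 614). Relative to reads of nuclear genes only, the share was 1.76% ± 0.050 against 1.45% ± 0.085, and neither measure overlapped between the groups. The matrix arm sum went from 6763 ± 243 to 5778 ± 403 CPM and the membrane arm sum from 3116 ± 109 to 2790.1 ± 134 CPM. The ratio of the matrix arm sum to the membrane arm sum was 2.13, 2.26, 2.14 and 2.16 in controls and 2.09, 2.12, 2.01 and 2.06 with REPTOR[ACT]. The groups did not overlap in this ratio, but the lowest control (2.13) and the highest REPTOR[ACT] library (2.12) were close. The matrix arm sum includes ND-75, whose groups overlapped (583 to 911 CPM in controls, 501 to 628 CPM with REPTOR[ACT]). Its spread is large beside the gap between the ratios, so the separation cannot be read as one of the arm as a whole.

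Libraries moved across genes together. REPTOR[ACT] replicate 3 was the lowest of its group in 27 of the 33 genes (81.8%), against 26.6% of all genes tested, and REPTOR[ACT] replicate 2 was the highest in 24 (72.7%, against 29.3% of all genes). Control replicate 4 was the highest control in 22 genes (66.7%, against 27.2% of all genes). Control replicates 1 and 2 were the lowest in 16 (48.5%, against 26.5%) and 14 (42.4%, against 32.8%). Without REPTOR[ACT] replicate 3, 17 of these genes were called lower and 4 higher (1728 and 2303 over all genes). The median log2 fold changes were then −0.29 in the matrix arm and −0.19 in the membrane arm. The genes are therefore not separate pieces of evidence, and what the low libraries have in common was not tested.

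The 7 complex I mRNAs made from mitochondrial DNA encode the proton-pumping core of the membrane arm. All 7 were on the lower side (median log2 fold change −1.37). Of them 5 were called lower (71.4%, against 19.4% of all genes tested). Summed, they were at 9196, 22664, 17333 and 28181 CPM in the control libraries and at 7782, 8328.5, 8069 and 8638.5 CPM in the REPTOR[ACT] libraries. Control replicate 1 lay near the REPTOR[ACT] libraries and the other 3 controls far above. mt:ND1 went from 7708 ± 2421 to 2307 ± 143 CPM (−1.74, adjusted p = 4.3e-04) and mt:ND6 from 31.1 ± 13.8 to 11.1 ± 1.76 CPM (−1.49, adjusted p = 0.00956). Only these 2 of the 7 had all REPTOR[ACT] libraries below all controls (28.6%, against 18.3% of all genes tested), and the others overlapped. mt:ND2 (−1.37), mt:ND5 (−1.16) and mt:ND4L (−0.52) were called with adjusted p between 0.0325 and 0.0474, and mt:ND3 (−2.13) and mt:ND4 (−0.61) were not. With the replicate block 3 were called, as with limma-voom, and with no filter on low counts 2 were. Without control replicate 1 all 7 were called (median −1.61), there were 3 when replicate 3 or 4 of the controls or replicate 4 of REPTOR[ACT] was left out (medians −1.44, −0.92 and −1.49), and without control replicate 2 or REPTOR[ACT] replicate 1, 2 or 3 there were 2, so the number of calls depends on single libraries and on the fit. The summed nuclear complex I genes did not set control replicate 1 apart to this extent, although single genes such as ND-75 did have their lowest control value there. Control replicate 1 had 94.2% of the mean summed CPM of the nuclear genes over the other controls but 40.5% of that of the mitochondrial mRNAs.

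Assembly factors build the complex without staying in it. Of 9 genes listed as such, 5 were lower and 1 was higher (median −0.25), where 19.4% and 24.8% of all genes tested were. The reference annotation gives no such role for 3 of the 9, CG3270, CG8067 and CG17726. CG5569, annotated as the fly NDUFAF3, was at 38.9, 32.2, 34.0 and 33.9 CPM in controls and at 18.2, 16.9, 17.3 and 14.9 CPM with REPTOR[ACT] (log2 fold change −1.05, SE 0.0823, adjusted p = 1.7e-06). CG3262, the fly NUBPL, which delivers iron-sulphur clusters to the complex, was at 68.5 ± 2.42 against 47.6 ± 2.38 CPM (−0.52, adjusted p = 2.3e-05). Both groups of libraries were separated for each. sicily (−0.23), CG17726 (−0.52) and CG8067 (−0.25) were the other lower genes, and ECSIT was higher, at 10.98 ± 0.639 against 14.3 ± 0.409 CPM (0.38, adjusted p = 8.1e-04). CIA30 (0.019), CG11722, the fly NDUFAF4 (0.084), and CG3270 (−0.34) were not called. With scaling by total size alone, 3 of the 9 were called lower.

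The nuclear subunits of the other respiratory complexes were also mostly lower or not called. For comparison, 19.4% of all genes tested were called lower and 24.8% higher. In complex II, succinate dehydrogenase, 2 of 4 were lower, SdhA by −1.16 and SdhB by −0.63 on the log2 scale. In complex III 6 of 9 were lower and 1 was higher (median −0.37), in complex IV 4 of 9 were lower (median −0.11), and in complex V, the ATP synthase, 6 of 13 were lower and 1 was higher (median −0.038). The count of higher complex V genes moved between 1 and 3 over the alternatives, reaching 3 without REPTOR[ACT] replicate 3 and with the replicate block. The count of lower complex III genes moved between 4 and 6 (medians −0.39 to −0.26). It was 4 when control replicate 3 or 4 or REPTOR[ACT] replicate 1 or 3 was left out. Complexes II and IV kept 2 and 4 lower genes, and complex V had 5 to 6. No test of a difference between complexes was made.

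**Figure D4:**
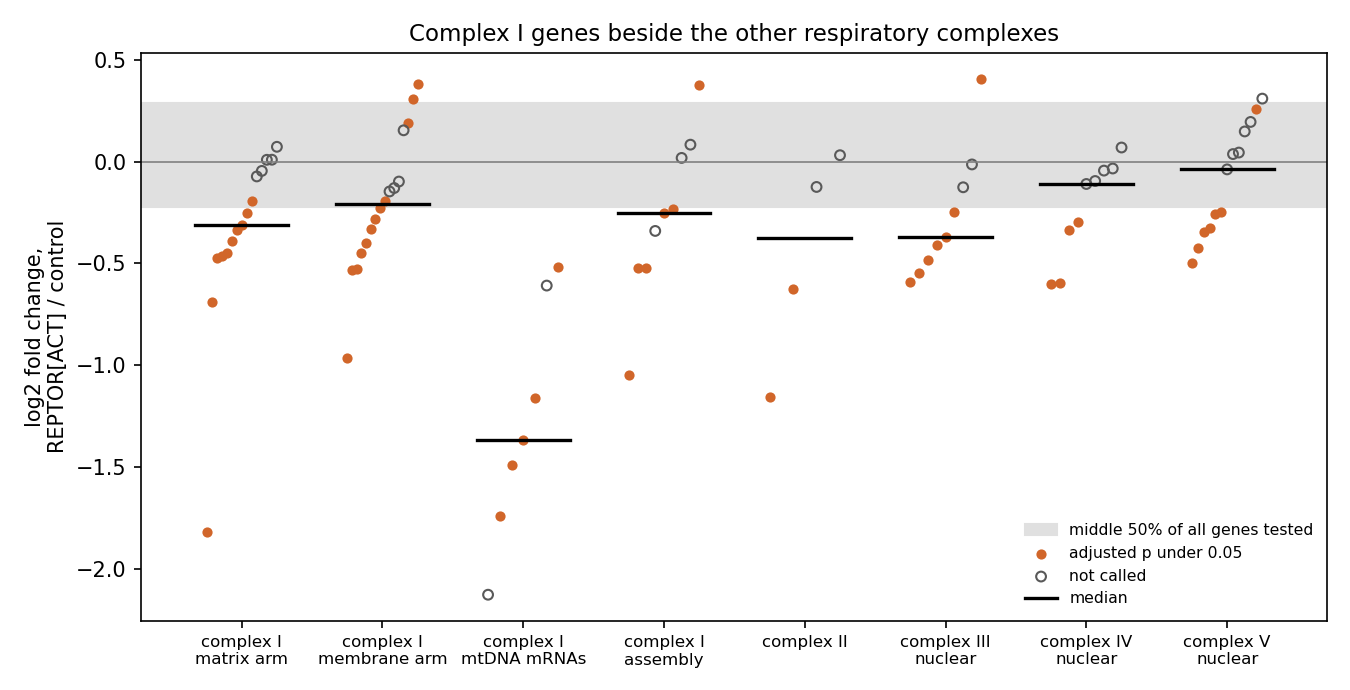
Log2 fold change, REPTOR[ACT] over control (vertical axis), of each gene of the complex I arms, the mitochondrial complex I mRNAs, the complex I assembly factors and the nuclear subunits of complexes II to V. Filled points had an adjusted p under 0.05, open points did not, black bars are medians and the grey band is the middle 50% of all 9903 genes (−0.22 to 0.29). The medians of the matrix arm (−0.31), the mitochondrial mRNAs (−1.37), the assembly factors (−0.25) and complexes II and III (both −0.37) lie below the band, that of the membrane arm (−0.21) at its lower edge and those of complexes IV (−0.11) and V (−0.038) inside it.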

How the data were processed

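Poly-A RNA of fly thoraces was profiled in 4 control and 4 REPTOR[ACT] libraries, grouped by genotype label. Per the study's methods, the authors prepared oligo-dT libraries, sequenced single reads in 4 pools for technical replication, ran FastQC and MultiQC on them, mapped them with STAR to a FlyBase release of the fly genome and tested genes with DESeq2. The labels give another kit and sequencer and, for these fly reads, the mouse build mm10, which must be an error. Neither the read counter nor its handling of strand is given in the sources used here.

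Deposited values were expected counts per gene, not scaled for depth. All were multiples of 0.25, as a mean over 4 pools would give (inferred from the values), so they were multiplied by 4 and used as whole read counts. Deposited totals were 6.70 to 12.5 M and multiplied totals 26.8 to 50.03 M (M, 1000000 reads). A row naming no gene held 0 reads and was left out. The 95% intervals of fold changes include the spread between libraries, whereas the 3-read limit covers counting error only. Pairs of libraries from 1 group had a chi-square of 19.2 to 139 per degree of freedom, far over counting error, so none was deposited more than once.

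After filterByExpr (10 reads at median depth, 15 in total), 9903 of 17562 genes were tested with edgeR 4.0.16 (TMM, robust quasi-likelihood, no covariate, R 4.3.3), as REPTOR[ACT] against control, with Benjamini-Hochberg adjustment over all of them. SEs follow from each log2 fold change and its F statistic. Common biological variation was 0.120. The test was also tested on simulated data, with changes set in genes drawn at random from those tested. It recovered 8.96% of log2 changes of 0.3, 64.7% of those of 0.5 and 84.4% of those of 1, and 4.59% of its calls were false. Recovery at the levels and spread of the complex I genes was not looked at separately. Alternatives were RLE factors, total library size, mitochondrial genes removed, DESeq2 1.42.0, limma-voom (limma 3.58.1), no filter and a stricter one (10 CPM in 4 libraries), a replicate block, the deposited values rounded, and leaving out each library. Coordinates, exon lengths and shared exons come from the Ensembl annotation of BDGP6.54 (17506 of 17562 identifiers matched). CPM per kb uses the summed exon bases of a gene. No sequences are shown.

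Control and REPTOR[ACT] libraries with the same number deviated from their group means together. The correlations over all genes tested were 0.138, 0.433, 0.220 and 0.137, all above 0.1. Over the 33 complex I genes they were stronger for replicates 1, 3 and 4 (0.604, 0.373, 0.333 and 0.882 for replicates 1 to 4). The numbers may therefore pair the libraries, although the labels do not say what they share. The main test has no term for the pairs, which enter in the replicate block alternative alone. Over all genes tested, replicates 3 and 4 correlated at least as well with another number.

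Of the genes counted, 1 core subunit and its paralogue are not reported here by name. Values in every library are given for up to 4 of the lowest and 3 of the highest called genes of each arm and for paralogues. ND-75, ND-51 and ND-18 were added after their values were seen. The complex I genes and all lists were chosen with earlier results of these data known. Arms and roles follow the mammalian orthologues named as synonyms in the RefSeq annotation.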

Additional observations from a re-analysis of the deposited data

Results flagged for a closer look

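In 2 of the 66 groups of 4 libraries formed by the 33 tested genes, 1 library stood apart from the other 3. The gap to the nearest library, as a share of the group's range, was above the 95% critical value of Dixon's test for 4 samples, which chance passes in about 5% of groups. ND-18 in control replicate 4 was at 124 CPM against 172 to 177 CPM in the other controls (ratio 0.908), and REPTOR[ACT] replicate 4 was the lowest of its group too. ND-B14.7 in REPTOR[ACT] replicate 3 was at 161 CPM against 177 to 180.4 CPM (ratio 0.836). The causes were not tested.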

How the results depend on the processing

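Over 17 alternatives, 17 of the 22 calls among complex I genes held in each (15 lower, and ND-15 and ND-B18 higher) and no called direction turned. ND-13B, ND-42, ND-75, ND-SGDH and ND-PDSW lost the call in some, and ND-ACP, ND-ASHI, ND-B15 and ND-MLRQ gained one in some. ND-18, ND-39 and ND-30, none of them called, changed sign. The number of genes called higher rose from 3 to 5 with the replicate block, with 20 called lower, and the block changed no other call among them. Leaving out 1 library gave 17 to 20 lower and 2 to 4 higher genes, with medians of −0.34 to −0.28 in the matrix arm and −0.22 to −0.19 in the membrane arm. The other settings gave 16 to 20 lower and 2 to 5 higher genes. Over all genes, calls were 1599 to 1795 lower and 2257 to 2577 higher when 1 library was left out. They were 1308 to 2428 lower and 1736 to 2805 higher in the other settings, most with the replicate block. Depth limits the paralogues, which were under the count needed for a test. With 4 libraries a group, ND-18, ND-75 and ND-AGGG had the widest intervals.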
